A study of Homo sapiens with 5 samples.

Results

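The expression of inflammatory chemokines and cytokines by tumor cells was followed in KYSE30-Luc-GFP, a human esophageal squamous cell carcinoma (ESCC) cell line labeled with luciferase and green fluorescent protein (GFP), before and after it seeded the mouse lung. The set consisted of 10 genes given as a list, CXCL1, CXCL2, CXCL3, CXCL8, CCL20, IL1A, IL1B, IL6, LIF and NFKBIA, out of 33538 genes in the single-cell count matrices. Each of the 10 had at least 1 UMI (unique molecular identifier, which counts 1 captured mRNA molecule) in the kept cells of every library. The 5 libraries were the parental culture in vitro and GFP+ cells sorted from dissociated lungs 6h, 48h, 2mo or 4mo (hours and months) after tail vein injection into NOD SCID mice, which lack functional B and T cells. The mice were 4 to 5 weeks old at injection, so their age at collection rose with the timepoint. The lung libraries pooled 3 mice at 6h, 16 mice at 48h and 6 mice at 2mo and came from 1 mouse at 4mo, and the barcodes do not tell the mice apart. Each timepoint is 1 library, so no difference between timepoints has a replicate or a test, and every interval given is a 95% exact interval that covers counting error only.

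NF-kB transcription factors are held in the cytoplasm by inhibitors such as the protein encoded by NFKBIA. Signals from interleukin 1 or TNF destroy the inhibitor, and NF-kB then switches on chemokine and cytokine genes together with NFKBIA itself, which closes a negative feedback loop. CXCL1, CXCL2, CXCL3 and CXCL8 encode neutrophil-attracting chemokines that act through CXCR2, CCL20 attracts cells that carry CCR6, IL1A and IL1B encode interleukin 1 alpha and beta, and IL6 and LIF encode cytokines that signal through the shared receptor chain IL6ST.

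The promoters of these genes are shown first because a kB-like motif is what most of them share in sequence. RefSeq promoter sequences (GRCh38.p14, 250 bases before to 50 bases after the start) were found for 9 of the 10 genes, LIF having no entry. The motif GGNNTTTCC, a part of the NF-kB site, was searched on both strands and occurred in 7 of the 9. A gene was counted if any of its promoter entries matched. Of all 35116 promoter entries, which cover 27305 genes, 6.26% held the motif, so these shares are of unlike units. IL1A and IL1B held no match in this window. The motif TGANTCA, the core bound by AP-1, was found in CXCL8 and IL1A and in 7.71% of all promoters. The 7 promoters with a kB-like motif are printed 5′ to 3′ from 140 to 41 bases before the start, with matches to either motif in capitals.
CXCL8 (chr4:73740429-73740528, + strand): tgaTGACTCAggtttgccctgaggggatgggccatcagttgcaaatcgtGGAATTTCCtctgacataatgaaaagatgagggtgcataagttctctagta
CXCL1 (chr4:73869253-73869352, + strand): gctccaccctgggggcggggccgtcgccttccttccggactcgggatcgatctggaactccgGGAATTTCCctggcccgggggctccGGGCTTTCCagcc
CXCL2 (chr4:74099236-74099335, - strand): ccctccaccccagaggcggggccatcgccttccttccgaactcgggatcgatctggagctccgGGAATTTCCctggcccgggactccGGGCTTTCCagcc
CXCL3 (chr4:74038730-74038829, - strand): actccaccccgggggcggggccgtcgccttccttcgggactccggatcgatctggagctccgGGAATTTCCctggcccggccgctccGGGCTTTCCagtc
CCL20 (chr2:227813702-227813801, + strand): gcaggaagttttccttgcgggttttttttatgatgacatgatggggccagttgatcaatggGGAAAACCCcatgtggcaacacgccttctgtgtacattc
IL6 (chr7:22727060-22727159, + strand): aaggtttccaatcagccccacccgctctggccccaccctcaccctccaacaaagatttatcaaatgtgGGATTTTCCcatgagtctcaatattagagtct
NFKBIA (chr14:35404790-35404889, - strand): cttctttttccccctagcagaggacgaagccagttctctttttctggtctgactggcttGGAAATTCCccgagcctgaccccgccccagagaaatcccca

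The kB-like motif of CXCL8 begins 91 bases before the start, that of IL6 72 bases and that of CCL20, on the reverse strand, 79 bases. CXCL1 and CXCL3 each carry 2 matches, at 78 and 53 bases, and CXCL2 carries 2, at 77 and 53 bases. NFKBIA has a reverse-strand match at 81 bases and a further match at 242 bases, outside the window shown. In GENCODE 44, 10 bases of the CXCL8 window, 13 of the IL6 window and 78 of the CXCL3 window also lie in exons of other transcripts of the same genes. A match is a stretch of letters and not evidence of binding in these cells.

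Cells were kept if they had 200 to 8000 detected genes, a minimum of 1000 UMIs and no more than 15% of them mitochondrial, leaving 19986 of 26712 barcodes, between 1149 at 48h and 9059 in the parental culture. Summed depth ran from 32540023 UMIs at 6h to 204864006 in the parental culture, and median depth from 12979 UMIs per cell at 6h to 39076 at 48h. Of 12 squamous epithelial markers, 8 exceeded 5 CPM (UMIs scaled to the library total) in the parental culture, 11 at 6h and 48h and 12 at 2mo and 4mo. The culture had KRT18 at 1048 and EPCAM at 23.0 CPM, but the squamous markers KRT5, KRT14, KRT17 and TP63 at 0.00488, 0.0488, 0.488 and 2.62 CPM, so its squamous identity was not evident from these. PTPRC, which marks leukocytes, was at most 0.0427 CPM. The 11 leukocyte markers summed to 4.48 CPM in the parental culture, 44.8 at 6h, 26.1 at 48h, 2.36 at 2mo and 7.52 at 4mo, and at 6h most of that sum was LYZ at 17.5 and CD68 at 16.4 CPM. The LYZ UMIs at 6h came from 0.511% of cells. CSF1R was at 0.444 CPM in culture, 8.51 at 6h and 12.1 at 48h, where 27.8% of cells had a UMI of it and CD68 was at 11.2 CPM. Of the 11 markers, 4 were at 0 at 6h and 48h and 3 at 2mo, PTPRC being at 0 at 6h and 2mo, and their part in the levels below was not tested. Cells were divided by the study's signature filter, which asks for a UMI of C19orf33, S100A14 or RHOD and a UMI of CST6, CD44, TM4SF1 or another gene of that group and which uses none of the 10 genes. It was met by 14.5% of cells in culture, 98.2% at 6h, 95.6% at 48h, 81.8% at 2mo and 99.2% at 4mo. The 50 cells that failed it at 48h and the 34 at 4mo stood apart, with median depths of 1837 and 1490 UMIs and median mitochondrial shares of 0.0982% and 0.183%, and results without them are given as those of signature-positive cells. Across libraries, 198 distinct barcodes occurred in 2 or more.

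Summed over the 10 genes, the level was 31.5 CPM in the parental culture (interval 30.8 to 32.3), 486 in 6h lungs (479 to 494), 1379 at 48h (1368 to 1389), 111 at 2mo (108 to 113) and 287 at 4mo (284 to 290). NFKBIA supplied most of these UMIs. The 9 genes for secreted proteins together stood at 3.43 CPM (3.18 to 3.69), 82.8 (79.7 to 85.9), 124 (121 to 127), 41.2 (39.9 to 42.7) and 121 (119 to 123) in the same order. The secreted genes were thus lowest in culture, and their summed levels at 48h and 4mo had overlapping intervals while the genes that made them up differed.

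**Figure D1:**
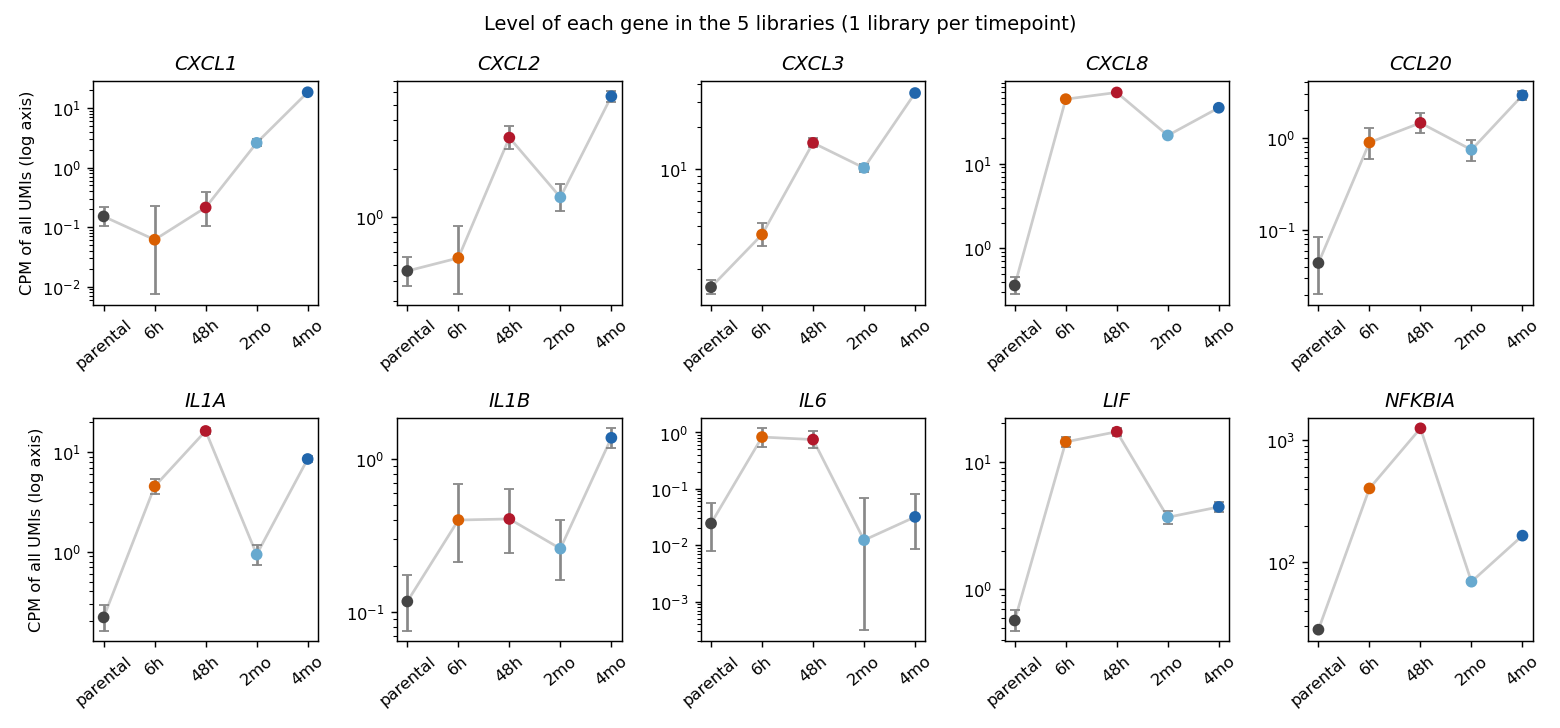
CPM of each of the 10 genes (log axes with a separate range per panel) in the parental, 6h, 48h, 2mo and 4mo libraries, 1 point per library with its 95% exact Poisson interval. LIF and IL6 are highest at 6h and 48h, CXCL1, CXCL2 and CXCL3 at 4mo, and CXCL8 is above 20 CPM in each lung library.

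CXCL8 (ENSG00000169429, chromosome 4, 73740519 to 73743716) had the largest relative difference between culture and lung among the chemokines at 6h. Its level was 0.361 CPM in the parental culture (0.284 to 0.454), 57.7 in 6h lungs (55.1 to 60.4), 69.3 at 48h (66.9 to 71.7), 21.5 at 2mo (20.5 to 22.5) and 45.7 at 4mo (44.5 to 46.9). No neighboring levels in this order overlapped, although these intervals treat UMIs as independent and single cells held many of them. The parental value rested on few cells, since 58 of its 74 UMIs came from 1 cell and 16 of 9059 cells had any. Against the whole culture CXCL8 was 160-fold higher in 6h lungs (127 to 204), and against the signature-positive parental cells, which held 71 of those 74 UMIs, it was 25.7-fold higher (20.3 to 33.04). Without the UMIs of the 1 cell that held 58, these ratios were 739 (454 to 1296) and 140.3 (81.8 to 264). Without the highest 6h cell instead, they were 138 (109 to 176) and 22.1 (17.4 to 28.5).

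CXCL1, CXCL2 and CXCL3 followed another course. CXCL1 (ENSG00000163739, chromosome 4, 73869393 to 73871308) stood at 0.151 CPM in the parental culture (0.103 to 0.215), 0.0615 in 6h lungs (0.00744 to 0.222), 0.214 at 48h (0.103 to 0.393), 2.60 at 2mo (2.26 to 2.97) and 18.4 at 4mo (17.6 to 19.1). It was a late gene: the values at 6h, in culture and at 48h overlapped and rested on 2, 31 and 10 UMIs, whereas 2303 UMIs were counted at 4mo. Between 2mo and 4mo CXCL1 was 7.07-fold higher (6.14 to 8.18), and between the parental culture and 4mo 121-fold (85.2 to 179).

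CXCL3 (ENSG00000163734, chromosome 4, 74036589 to 74038807) was measured at 1.48 CPM in the parental culture (1.32 to 1.66), 3.47 in 6h lungs (2.86 to 4.18), 15.3 at 48h (14.2 to 16.5), 10.2 at 2mo (9.54 to 10.9) and 34.4 at 4mo (33.4 to 35.5). CXCL2 (ENSG00000081041, chromosome 4, 74097040 to 74099196) was measured at 0.459 (0.371 to 0.562), 0.553 (0.328 to 0.874), 3.12 (2.64 to 3.67), 1.32 (1.08 to 1.60) and 5.65 CPM (5.24 to 6.08). Both had a local high at 48h and their highest value at 4mo, and for CXCL2 the parental and 6h values overlapped. From 6h to 48h CXCL3 was 4.42-fold higher (3.62 to 5.44) and CXCL2 5.64-fold (3.45 to 9.79), whereas CXCL8 was 1.20-fold higher (1.13 to 1.27). For CXCL8 this ratio was 1.09 (1.03 to 1.15) without the highest 48h cell and 1.39 (1.31 to 1.48) without the highest 6h cell. Without the highest CXCL2 cell at 6h, which left 11 UMIs, the CXCL2 ratio was 9.23 (5.01 to 18.9). Without the highest CXCL2 cell at 48h it was 5.14 (3.13 to 8.94). CXCL1, CXCL2 and CXCL3 are close copies, and Cell Ranger counts only reads that match 1 gene. No window of 90 bases in the last 500 bases of the longest coding transcript of any of them occurred unchanged in a transcript of another (0 of 411 windows each).

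CCL20 (ENSG00000115009, chromosome 2, 227805739 to 227817564) stayed rare, at 0.0439 CPM in the parental culture (0.0201 to 0.0834), 0.891 in 6h lungs (0.597 to 1.28), 1.45 at 48h (1.13 to 1.84), 0.742 at 2mo (0.566 to 0.955) and 2.89 at 4mo (2.60 to 3.21). All 29 UMIs at 6h came from 1 cell, and 121 of 363 UMIs at 4mo came from 1 cell, so the Poisson intervals, which treat UMIs as independent, are narrower than the spread over cells. The values at 2mo and 6h, and at 6h and 48h, overlapped.

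IL1A (ENSG00000115008, chromosome 2, 112773925 to 112784493), which encodes a cytokine that epithelial cells release when damaged, was lowest in the culture as a whole and highest at 48h. Its levels were 0.220 CPM in the parental culture (0.160 to 0.294), 4.55 in 6h lungs (3.84 to 5.34), 16.4 at 48h (15.2 to 17.6), 0.940 at 2mo (0.740 to 1.18) and 8.56 at 4mo (8.06 to 9.09). In signature-positive cells alone IL1A was at 1.33 CPM in culture and 1.285 at 2mo. At 6h it was 20.7-fold above the whole culture (14.7 to 29.6) and 3.42-fold above the signature-positive parental cells (2.42 to 4.94). Between 48h and 2mo it was 17.4-fold lower (13.8 to 22.4), the largest such difference among the secreted genes apart from IL6, and between 2mo and 4mo 9.11-fold higher (7.22 to 11.7). IL1B (ENSG00000125538, chromosome 2, 112829751 to 112836816) never exceeded 1.38 CPM (1.18 to 1.60), its value at 4mo. In the parental culture, at 6h, 48h and 2mo IL1B stood at 0.117, 0.3995, 0.406 and 0.260 CPM, from 24, 13, 19 and 21 UMIs. The 2mo value overlapped that of the culture and that of 6h, and 6h overlapped 48h, whereas 6h and the whole culture were apart. Signature-positive parental cells had IL1B at 0.664 CPM, and the ratio of 6h to these was 0.601 (0.277 to 1.26), which includes 1.

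IL6 and LIF were early genes. LIF (ENSG00000128342, chromosome 22, 30240453 to 30246759) stood at 0.571 CPM in the parental culture (0.472 to 0.684), 14.3 in 6h lungs (13.0 to 15.7), 17.2 at 48h (15.997 to 18.4), 3.67 at 2mo (3.27 to 4.11) and 4.42 at 4mo (4.06 to 4.81). At 6h LIF was 25.0-fold above the whole culture (20.4 to 30.9) and 4.30-fold above the signature-positive parental cells (3.47 to 5.37). The ratio of 4mo to 2mo was 1.20 for LIF (1.04 to 1.39), against 2.13 for CXCL8 (2.01 to 2.24). IL6 (ENSG00000136244, chromosome 7, 22725884 to 22732002) was near the limit of counting, with 5, 27, 35, 1 and 4 UMIs in time order, or 0.0244 CPM (0.00793 to 0.0570), 0.830 (0.547 to 1.21), 0.748 (0.521 to 1.04), 0.0124 (0.000313 to 0.0689) and 0.0319 CPM (0.00869 to 0.0816). At 6h IL6 was 34.0-fold above the parental culture (12.9 to 113), and the 6h and 48h values overlapped. The ratio was 56.7 (17.4 to 292) without the highest parental cell, which left 3 UMIs. Without the highest 6h cell, which left 19 UMIs, the ratio was 23.9 (8.64 to 82.0). Within the 48h library 16 of the 35 IL6 UMIs came from 1 cell, and without it the level was 0.406 CPM.

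NFKBIA (ENSG00000100906, chromosome 14, 35401079 to 35404749), the feedback inhibitor, was found in more cells than any other gene of the set. It stood at 28.1 CPM in the parental culture (27.4 to 28.9), 404 in 6h lungs (397 to 411), 1255 at 48h (1244 to 1265), 69.5 at 2mo (67.7 to 71.4) and 166 at 4mo (163 to 168). Its order of libraries was that of CXCL8 and LIF, with 48h highest, then 6h, 4mo, 2mo and the culture. NFKBIA was 14.4-fold higher at 6h than in culture (13.9 to 14.8), 3.11-fold higher at 48h than in 6h lungs (3.05 to 3.17) and 18.0-fold lower at 2mo than at 48h (17.6 to 18.6). Against the signature-positive parental cells the 6h ratio was 8.21 (7.79 to 8.66).

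On the log2 scale with 1 CPM added, a gene was counted as different past 2-fold if it had at least 5 CPM in either library. Low genes pass that minimum only through the library in which they are high. The counts below, for these genes and for the gene lists, thus describe the genes and carry no weight beyond that. At 6h against the parental culture 3 of the 10 reached the minimum, and CXCL8, LIF and NFKBIA were all higher, by log2 ratios of 5.43, 3.28 and 3.80, in a comparison in which 17.2% of all 10852 genes tested were higher and 27.8% lower and the median of all genes was -0.29. Against signature-positive parental cells the same 3 were higher, by 4.18, 1.82 and 3.01, where 10.6% of genes tested were higher and 12.3% lower.

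At 48h against 6h, 5 genes reached the minimum and CXCL3, IL1A and NFKBIA were higher, by 1.87, 1.65 and 1.63, in a comparison where 3.24% of genes were higher and 1.42% lower. CXCL8 and LIF were within 2-fold, at 0.26 and 0.25. At 2mo against 48h, CXCL8, IL1A, LIF and NFKBIA were lower by log2 ratios of -1.64, -3.16, -1.96 and -4.15, where 13% of genes were lower and 12.2% higher, and CXCL3, the other gene tested, was at -0.54. CXCL1 went the other way, 12.1-fold higher in CPM (6.48 to 25.7), but stayed under 5 CPM in both libraries. Its ratio was 20.2 (9.15 to 55.8) without the highest 48h cell and 11.5 (6.13 to 24.4) without the highest 2mo cell.

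At 4mo against 2mo the 6 genes that reached the minimum, CXCL1, CXCL2, CXCL3, CXCL8, IL1A and NFKBIA, were higher, by 2.43, 1.52, 1.66, 1.05, 2.30 and 1.24, where 3.03% of genes were higher and 9.38% lower and the median of all genes was -0.24. Against the parental culture, which also serves the 6h comparison, the same 6 were higher at 4mo by log2 ratios of 4.07, 2.19, 3.84, 5.10, 2.97 and 2.52, where 13.4% of genes were higher and 30% lower. LIF at 1.79 fell short of the minimum there, since it was at 4.42 CPM. Of the culture's cells 14.5% were signature-positive, against 99.2% at 4mo, so this comparison sets unlike mixes of cells against each other. In signature-positive culture cells LIF was at 3.32, CXCL8 at 2.25, IL1A at 1.33 and NFKBIA at 49.2 CPM. CXCL1, CXCL2 and CXCL3 were lower there than in the whole culture, at 0, 0.0316 and 0.886 CPM.

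**Figure D2:**
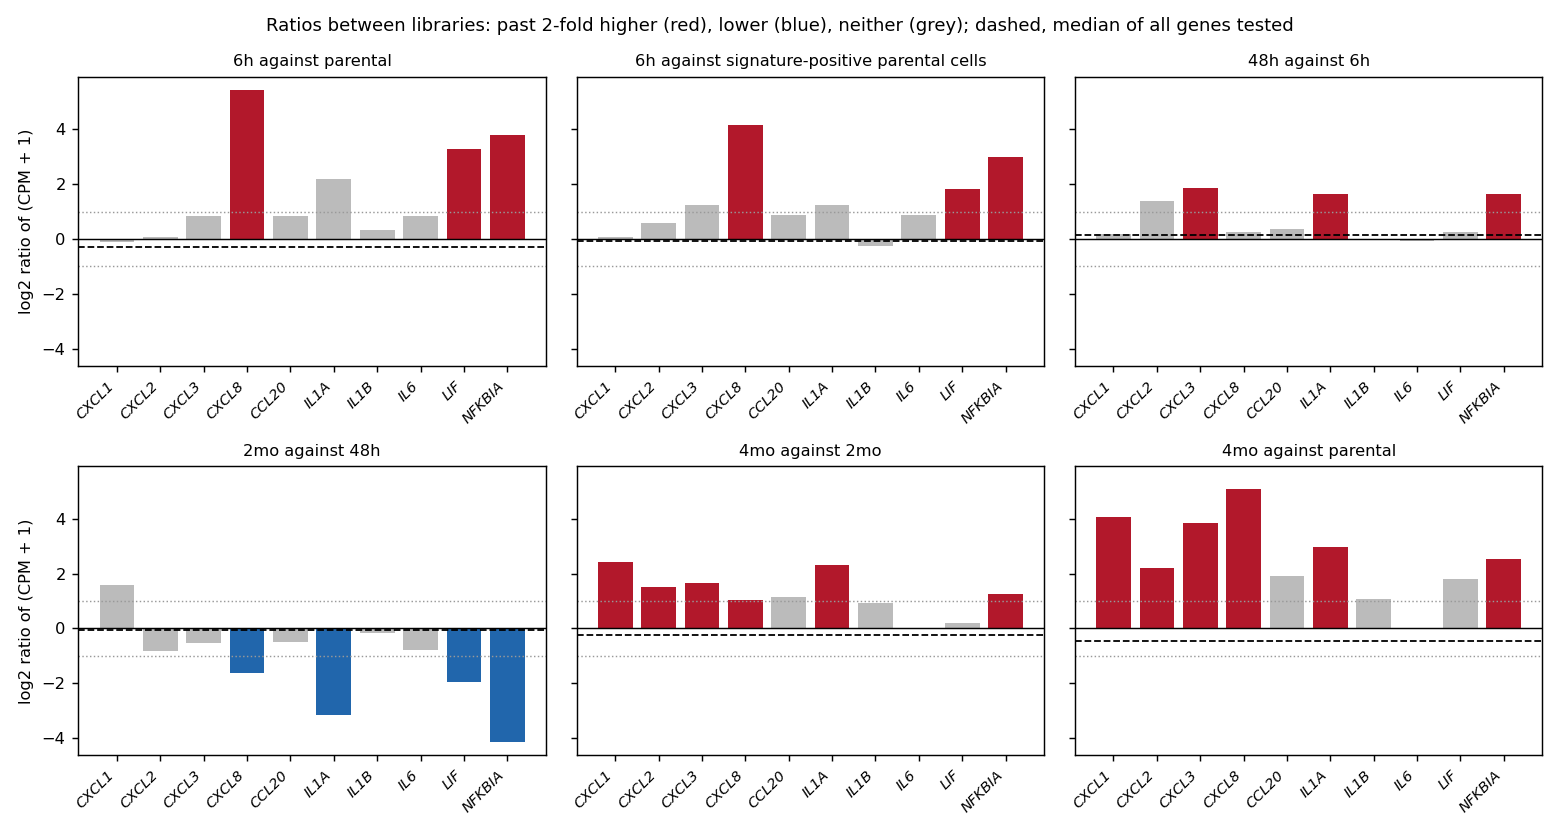
Bars give the log2 ratio of CPM with 1 CPM added for each gene in 6 comparisons of libraries, with genes past 2-fold and at 5 CPM or more colored, dotted lines at 2-fold and a dashed line at the median of all genes tested. CXCL8, LIF and NFKBIA are colored at 6h, 4 genes are lower at 2mo than at 48h, and 6 are higher at 4mo.

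No secreted gene was detected in more than 38.0% of the cells of a library. CXCL8 was detected in 0.177% of cells in culture (0.101% to 0.287%), 13.4% in 6h lungs (11.96% to 15.03%), 23.4% at 48h (21.0% to 26.0%), 13.3% at 2mo (12.1% to 14.5%) and 23.0% at 4mo (21.7% to 24.2%). LIF was found in 1.15%, 17.0%, 38.0%, 7.25% and 9.62% of cells and CXCL1 in 0.309%, 0.0511%, 0.261%, 2.62% and 11.2%. NFKBIA was found in 42.2%, 59.1%, 90.8%, 61.1% and 79.6%. Because these shares move with depth, each cell was also thinned to 1000 UMIs, after which CXCL8 was detected in 0.0331% (0.00683% to 0.0967%), 3.47% (2.71% to 4.38%), 4.96% (3.78% to 6.38%), 2.56% (2.05% to 3.15%) and 3.82% (3.28% to 4.43%). At equal depth the 6h, 48h and 4mo shares of CXCL8 overlapped in their intervals.

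Any of the 9 secreted genes was seen in 6.26% of cells in culture, 30.05% at 6h, 59.2% at 48h, 29.6% at 2mo and 49.1% at 4mo with all UMIs. After thinning to 1000 UMIs the shares were 0.375% (0.260% to 0.524%), 5.47% (4.50% to 6.57%), 8.62% (7.06% to 10.4%), 4.43% (3.75% to 5.18%) and 8.62% (7.82% to 9.48%). The 48h library, the deepest per cell, stood above 4mo with all UMIs, and at equal depth the intervals of both overlapped. For LIF the thinned shares were 0.0773%, 1.43%, 1.83%, 0.542% and 0.533%, and for CXCL1 they were 0.0331%, 0, 0, 0.181% and 1.60%, the zeros allowing up to 0.153% at 6h and 0.261% at 48h.

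**Figure D3:**
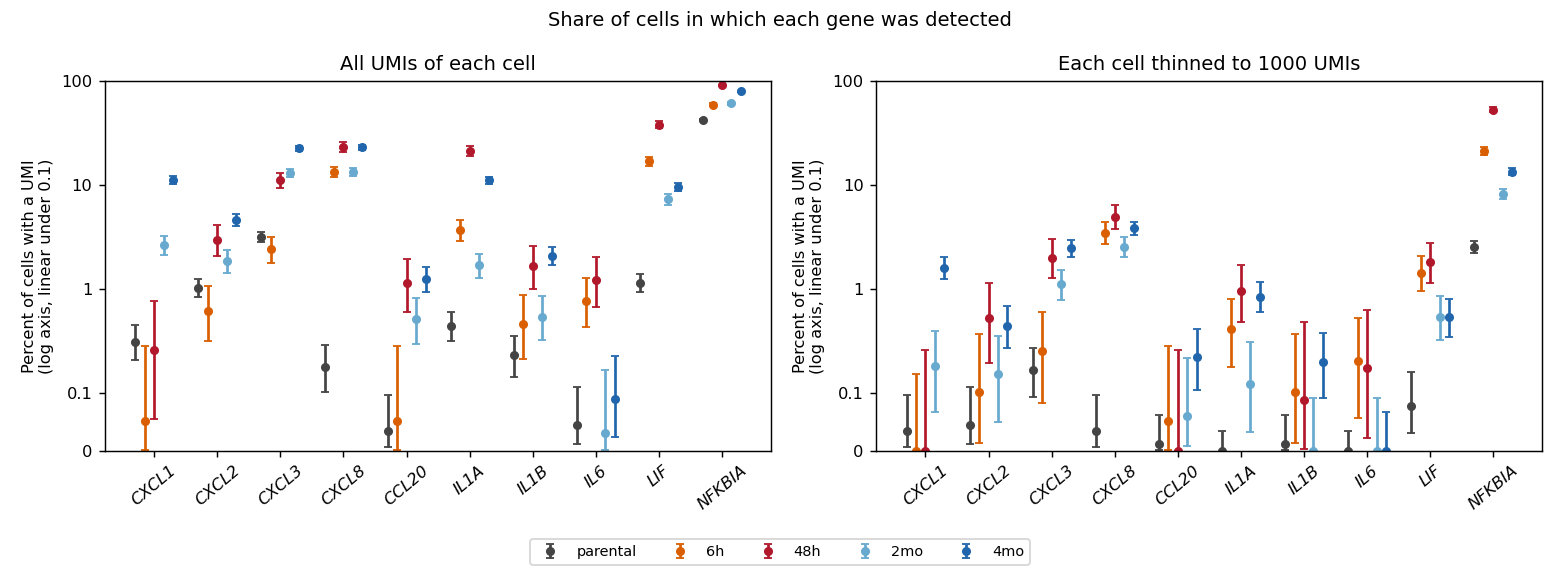
Percent of cells with at least 1 UMI of each gene (log axis, linear under 0.1) with all UMIs on the left and each cell thinned to 1000 UMIs on the right, 1 color per library, with 95% exact binomial intervals. Thinning lowers CXCL8 at 48h from 23.4% to 4.96% of cells and keeps CXCL1 highest at 4mo, at 1.60%.

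Amounts per cell were uneven. At 6h 12 cells held at least 50% of the CXCL8 UMIs and 1 cell held 261 of 1878, while at 48h 23 cells, at 2mo 64 and at 4mo 102 cells held that share. LIF was spread more evenly: 100 cells at 6h and 119 cells at 48h held 50% of its UMIs, and no cell had more than 13. Among cells with a UMI, the mean was 7.14 UMIs of CXCL8 at 6h and 12.04 at 48h, but 1.40 and 1.84 UMIs of LIF. NFKBIA was carried by 56.3 UMIs per positive cell at 48h against 1.51 in the parental culture.

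The cells with the most UMIs of the secreted genes differed in what they expressed. The top cell at 6h held 261 UMIs of CXCL8, 1 of IL1A and none of the other 7 secreted genes, with 164 of NFKBIA. The third-ranked cell at 6h held 106 of CXCL8, 13 of CXCL3 and all 29 of CCL20 and no NFKBIA. At 48h the top cell held 300 UMIs of CXCL8 and 298 of NFKBIA together with 217 of CSF2. At 4mo the top cell held 295 UMIs of CXCL8, 108 of CXCL3, 25 of CXCL2, 24 of IL1B and 9 of CXCL1, and the next 139 of CXCL3, 68 of CXCL8, 34 of CXCL1 and 22 of CXCL2. The 2 cells at 4mo thus held several chemokines at once, as did cells of earlier libraries. The second-ranked cell at 6h held 133 UMIs of CXCL8, 7 of CXCL2 and 4 of CXCL3. The fourth-ranked cell at 48h held 95 of CXCL8, 10 of CXCL2 and 40 of CXCL3. The 5 highest cells of each lung library were signature-positive and had 0 to 6 leukocyte marker UMIs. Most had 99 or more epithelial marker UMIs, but the cells of ranks 2 and 4 at 6h, with 161 and 134 UMIs of secreted genes, had 5 and 7.

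Co-expression was read in cells thinned to 3000 UMIs, as the number of cells with both genes over the number that independent shares would give, for pairs with at least 5 cells by independence. No pair reached that in the parental culture, 3 of 45 did at 6h, 7 at 48h, 3 at 2mo and 10 at 4mo, and in each of these the observed number was at or above the independent one. At 4mo CXCL1 and CXCL3 were found together in 31 cells against 6.84, a ratio of 4.53 (3.08 to 6.44), CXCL1 and CXCL8 in 42 against 10.8, a ratio of 3.89 (2.81 to 5.26), and CXCL3 and CXCL8 in 61 against 15.9, a ratio of 3.84 (2.94 to 4.94). At 4mo CXCL1, CXCL3 and CXCL8 therefore met in the same cells about 4 times as often as independence gives. In the other lung libraries CXCL3 and CXCL8 fell under the minimum of 5 cells, but their ratios were also high. They met in 20 cells against 4.41 at 2mo, a ratio of 4.54 (2.77 to 7.01). At 48h it was 15 against 3.69, a ratio of 4.07 (2.28 to 6.71), and at 6h 5 against 0.713, a ratio of 7.01 (2.28 to 16.4). CXCL8 and IL1A at 4mo were at 1.26 (0.574 to 2.38), which includes 1.

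Pairs with NFKBIA had lower ratios, which the large share of cells with NFKBIA also caps. The intervals treat the observed number as Poisson and the independent number as fixed. They ignore that cap, can run past it and are wider than the shares allow. CXCL8 and NFKBIA were seen together in 104 cells at 48h against 80.9, a ratio of 1.29 (1.05 to 1.56), where 75.6% of cells had NFKBIA, in 51 cells at 2mo against 26.4, a ratio of 1.93 (1.44 to 2.54), and in 159 at 4mo against 98.2, a ratio of 1.62 (1.38 to 1.89). At 6h that ratio was 1.27 (0.957 to 1.66), and for LIF and NFKBIA at 6h 1.69 (1.19 to 2.31). LIF and NFKBIA at 2mo and 4mo were at 1.01 (0.437 to 2.00) and 1.18 (0.722 to 1.83), intervals that include 1. By amount, in thinned counts, cells with CXCL8 had NFKBIA at 1391, 3548, 238 and 392 CPM at 6h, 48h, 2mo and 4mo. Cells without CXCL8 had it at 314, 1097, 76.6 and 141 CPM. For LIF the amounts were 540 against 373 CPM at 6h, 1887 against 1312 at 48h and 179 against 160 at 4mo. As a description of cells that share a library, Pearson's r of scaled counts was 0.34 for CXCL8 and NFKBIA across 1073 cells at 48h and 0.28 for CXCL3 and CXCL8 across 4218 cells at 4mo.

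**Figure D4:**
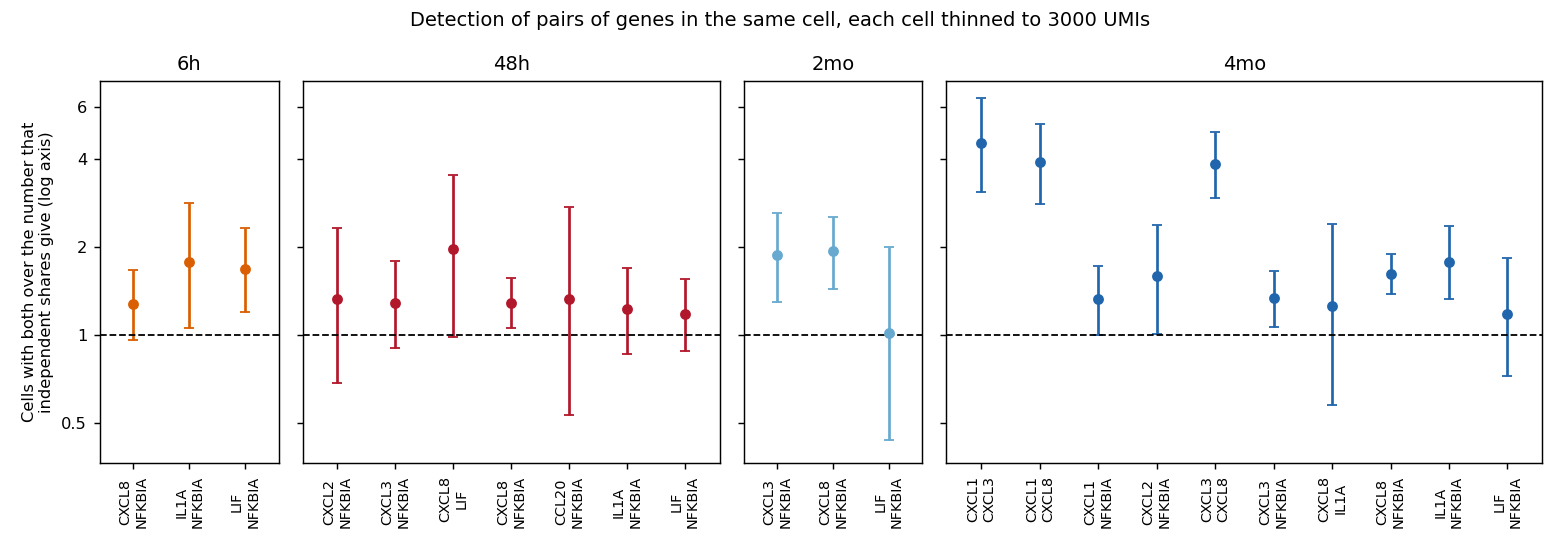
Cells with a UMI of both genes over the number given by independent shares (log axis), each cell thinned to 3000 UMIs, for the pairs with at least 5 cells by independence, with 95% exact Poisson intervals for the observed number and a dashed line at 1. The CXCL1, CXCL3 and CXCL8 pairs at 4mo lie between 3.84 and 4.53.

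Few cells expressed several of the 9 secreted genes at this depth. At 6h 9.87% of cells had 1 of them (8.54% to 11.3%), 0.600% had 2 and 0.164% had at least 4, at 48h the shares were 15.6%, 3.54% and 0.186%, and at 4mo 13.1%, 2.47% and 0.237%. In the parental culture 89 of 8902 cells had 1 and 1 cell had 2.

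Within a library, the genes divided between the signature classes. In the parental culture CXCL8 was at 2.25 CPM in 1310 signature-positive cells (1.75 to 2.83) and 0.0173 in 7749 negative ones (0.00357 to 0.0506), a ratio of 130 (42.6 to 644). Of the 71 UMIs in positive cells 58 came from 1 cell, and without them the level was 0.411 CPM and the ratio 23.8 (6.53 to 129.97). LIF was at 3.32 and 0.0693 CPM, a ratio of 48.0 (26.3 to 95.8), and IL1A at 1.33 and 0.0173 CPM, a ratio of 76.7 (24.5 to 387). CXCL1, CXCL2 and CXCL3 were the reverse, with 0 UMIs in signature-positive cells (up to 0.0949 CPM) against 0.179 CPM for CXCL1, 1 UMI against 0.537 CPM for CXCL2, and 0.886 against 1.59 CPM for CXCL3. By CPM, CXCL1 and CXCL2 thus leaned to the negative class in culture, which held 7749 of the 9059 cells. CXCL3 leaned the same way within 2-fold, at a ratio of 0.558 (0.364 to 0.825). The UMIs of CXCL8, LIF and IL1A were mainly in the positive class. NFKBIA, the only gene at 5 CPM there, was at 49.2 and 24.3 CPM, a log2 ratio of 0.99, in a comparison where 12.9% of genes were higher and 18.8% lower past 2-fold.

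At 2mo, with 2716 signature-positive and 606 negative cells, all of these genes but IL6 leaned to the positive class. CXCL8 was at 29.4 CPM in positive cells (28.0 to 30.8) and 0.0460 in negative ones (0.00116 to 0.256), where 1 UMI was counted, a ratio of 639 with a lower bound of 114. LIF was at 5.02 CPM against 0 UMIs, so at least 36.4-fold higher against 3 counts in the negative class, and IL1A, at 1.28 CPM, was at least 9.32-fold higher. CXCL3 was at 13.2 and 2.02 CPM, a ratio of 6.55 (4.83 to 9.08), CXCL1 at 3.53 and 0.0460, a ratio of 76.9 with a lower bound of 13.6, and CXCL2 at 1.52 and 0.781, a ratio of 1.95 (1.15 to 3.49). Past 2-fold and at 5 CPM, CXCL3, CXCL8, LIF and NFKBIA were higher, with log2 ratios of 2.24, 4.86, 2.59 and 2.14, where 18.8% of genes were higher and 21.9% lower.

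No cell type that lacks these genes was sorted, so shares were compared with those of the negative cells at 2mo. These negative cells are not free of the set, as they held 44 UMIs of CXCL3, 17 of CXCL2 and 419 of NFKBIA. They were deeper than the positive ones, with a median of 37139.5 against 19415.5 UMIs, yet CXCL8 was found in 1 of 606 (0.165%, 0.00418% to 0.916%) against 440 of 2716 positive cells (16.2%), and LIF in 0 of 606, which allows up to 0.495%. The CXCL2 share was 2.81% in negative and 1.66% in positive cells, so its share did not separate the classes.

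**Figure D5:**
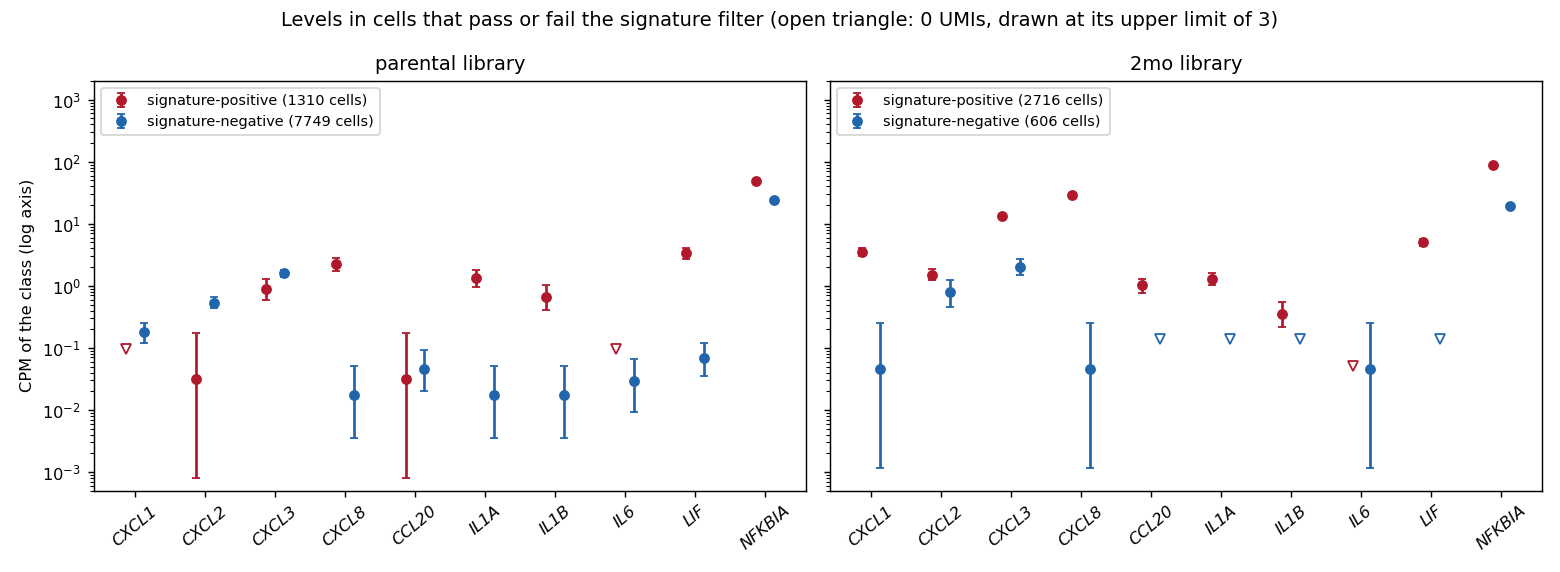
CPM of each gene (log axis) in signature-positive (red) and signature-negative (blue) cells of the parental and 2mo libraries, with 95% exact Poisson intervals and open triangles at the upper limit of 3 UMIs where none was counted. CXCL8, IL1A and LIF are higher in positive cells in both libraries. CXCL1 and CXCL3 change sides between culture and 2mo, CXCL3 lying within 2-fold in culture.

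The immediate early and heat shock genes that enzyme digestion of tissue can raise went up and down with the set in their sum, but not each alone. The 13 of them summed to 1859 CPM in the parental culture (959 in its signature-positive cells), which was not digested from a lung, and to 4653, 7729, 3543 and 5738 CPM at 6h, 48h, 2mo and 4mo. At 6h against the parental culture 10 of the 13 were higher and none lower, where 17.2% of all genes tested were higher, with FOS at 8.36 and 232 CPM and IER3 at 59.3 and 705 CPM, and at 2mo against 48h none was higher and 9 were lower, where 13% of all genes were lower. HSPA1A, the highest of the 13 in culture, was at 971, 865, 996, 1124 and 827 CPM in time order. HSPA1B was at 450, 380, 435, 440 and 368 CPM. FOS and DUSP1 were highest at 4mo, at 1275 and 629 CPM. Against signature-positive parental cells, with HSPA1A at 136 and HSPA1B at 68.7 CPM, 12 of the 13 were higher at 6h, where 10.6% of all genes were. Cells with CXCL8 at 6h, in thinned counts, had 9609 CPM of these genes against 4462 in cells without, at 48h 12707 against 7761, at 2mo 5500 against 3965 and at 4mo 7408 against 6219. For CXCL3 the values were 4953 against 4005 at 2mo and 6560 against 6298 at 4mo, and for LIF 6103 against 4724 at 6h, 9786 against 8170 at 48h and 6333 against 6311 at 4mo. Cells with IL1A or CXCL1 at 4mo had less than those without, at 5226 against 6335 and 5760 against 6330. Lungs were digested with liberase for 1 h at 37 °C, so lung residence and digestion cannot be told apart at a timepoint, and the part of digestion in these levels was not tested.

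The 10 genes outside the set whose counts went most with the summed UMIs of the 10, by mean Pearson correlation over the 5 libraries among 3695 genes, were IER3, ZFP36, JUNB, PPP1R15A, TNFAIP3, IER2, KLF6, ELF3, CLDN4 and IRF1, with means from 0.44 to 0.33. NFKBIA dominates that sum. For the sum without NFKBIA the highest were TNFAIP3 at 0.30, IER3 at 0.25 and EFNA1 at 0.24. TNFAIP3, which like NFKBIA restrains NF-kB, stood at 1.09, 44.01, 69.1, 7.23 and 21.8 CPM in time order.

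Of the 8 NF-kB subunits and kinases, 5 were higher at 6h than in culture and none lower, against 17.2% of all genes higher. At 2mo 5 were lower than at 48h and none higher, against 13% of all genes lower, and at 4mo 1 was higher than at 2mo, against 3.03% of all genes. RELB, a subunit that is itself an NF-kB target, was at 3.24, 101, 119, 9.78 and 36.2 CPM. NFKB2, the precursor of its partner, was at 5.50, 51.9, 98.8, 6.404 and 10.2 CPM. RELA, the main activating subunit, varied less, at 27.1, 65.0, 93.2, 26.8 and 29.96 CPM. Of the 10 feedback inhibitors other than NFKBIA, 8 were tested at 6h against the culture and 5 were higher, against 17.2% of all genes, among them TNIP1 at 37.1 and 117 CPM.

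Among 19 other NF-kB targets, 10 were tested at 6h and 9 of them were higher than in culture, where 17.2% of all genes were. BIRC3, TRAF1, TNFAIP2 and MMP9 were under 5 CPM in culture and reached the minimum only through their 6h values. Their median log2 ratio was 2.55, against -0.29 over all genes. Against signature-positive parental cells 7 of 10 were higher, where 10.6% of genes were. At 2mo 10 of 12 were lower than at 48h, against 13% of all genes, and at 4mo 6 of 11 were higher than at 2mo, against 3.03%. BIRC3, an inhibitor of cell death, was at 0.454, 39.7, 109, 2.45 and 5.27 CPM, and TRAF1, an adaptor of TNF receptors, at 0.469, 11.3, 73.3, 0.581 and 1.92 CPM. PLAU, the urokinase gene, was at 9.23, 568, 505, 42.7 and 147 CPM. These 3 targets had their highest values at 6h or 48h. SOD2, another target, was highest in culture, at 78.2, 40.1, 39.0, 51.8 and 35.0 CPM in time order. It was past 2-fold lower at 4mo than in culture, where 30% of all genes were lower. In signature-positive culture cells SOD2 was at 41.2 CPM, within 2-fold of its 4mo level. Of 12 tested only 1 target, LCN2, was higher at 2mo than at 48h, where 12.2% of all genes were higher.

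Of 14 other cytokines, 5 were tested at 6h, of which CSF2, IL11, IL32 and CLCF1 were higher than in culture and TGFB1 was lower. In that comparison 17.2% of all genes were higher and 27.8% lower. Against signature-positive parental cells the same 4 were higher, where 10.6% of genes were, and TGFB1 was within 2-fold. In both comparisons these 4 were under 5 CPM in culture and reached the minimum only through their 6h values. The courses of these cytokines differed later. CSF2, which encodes the growth factor GM-CSF, stood at 0.278, 43.7, 134, 0.148 and 7.60 CPM, and IL11, a cytokine of the interleukin 6 family, at 0.288, 39.4, 54.7, 0.977 and 4.10 CPM. IL32 was at 2.16, 24.4, 292, 22.9 and 125 CPM. TNF, named after its values were seen, was at 0.00488, 0.799, 16.2, 0.532 and 18.1 CPM, with its highest value at 4mo.

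In the interleukin 1 family, IL18 stood at 5.12, 87.1, 52.7, 93.4 and 129 CPM and IL1RN, the receptor antagonist of interleukin 1, at 0.391, 7.99, 4.89, 7.31 and 25.3 CPM. Both had their highest value at 4mo. IL1RAP, the accessory chain of the interleukin 1 receptor, was at 2.28, 8.33, 8.79, 16.6 and 69.1 CPM, while the ligand-binding chain IL1R1, named after its values were seen, stayed at or under 0.949 CPM.

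The receptors of the neutrophil chemokines were nearly absent, CXCR1 at 0.0214 CPM or less and CXCR2 at 0.0124 CPM or less in every library, both named after their values were seen. Receptors of the interleukin 6 family were present: IL6ST, the shared chain, was at 15.3, 36.2, 54.0, 18.9 and 20.01 CPM, OSMR at 3.76, 31.4, 25.7, 8.17 and 19.8 CPM and IL6R at 2.51, 21.9, 15.6, 3.72 and 4.79 CPM. Of the 11 receptor genes, 4 of 5 tested were higher at 6h than in culture, where 17.2% of all genes were higher. Against signature-positive parental cells 2 of 5, IL6R and OSMR, were higher, where 10.6% of genes were. At 2mo 3 of 5 were lower than at 48h, where 13% of all genes were lower. SOCS3, a feedback inhibitor of the interleukin 6 family's signaling, was at 5.96, 53.1, 49.0, 8.12 and 30.8 CPM. Of 9 tested genes of that signaling 5 were higher at 6h than in culture and none lower, where 17.2% of all genes were higher. Against signature-positive parental cells 4 of 9 were higher, where 10.6% of genes were.

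Regulators of the decay of cytokine mRNA went both ways. Of 8, 7 were tested at 6h, and 4 were higher than in culture (ZFP36, ZFP36L1, ZFP36L2 and ZC3H12A) and 1, HNRNPD, lower. In that comparison 17.2% of all genes were higher and 27.8% lower. Against signature-positive parental cells ZFP36, ZFP36L2 and ZC3H12A were higher and HNRNPD lower, where 10.6% of genes were higher and 12.3% lower. At 4mo ZFP36, ZFP36L1, ZFP36L2 and ZC3H12A were higher than in culture, and ELAVL1, HNRNPD and KHSRP were lower. There 13.4% of all genes were higher and 30% lower. Signature-positive culture cells had ELAVL1 at 87.6, KHSRP at 66.1 and HNRNPD at 167 CPM, against 53.9, 35.7 and 45.2 at 4mo. ELAVL1 and KHSRP at 4mo were thus within 2-fold of that class, and HNRNPD was not. ZFP36, ZFP36L1, ZFP36L2 and ZC3H12A stayed past 2-fold above it. ZFP36, whose protein binds AU-rich elements of cytokine mRNAs, was at 11.1, 299, 772, 143 and 387 CPM. ZC3H12A, an RNase that degrades IL6 mRNA, was at 2.21, 25.9, 51.6, 7.69 and 28.5 CPM. Transcript counts here are steady-state levels, so synthesis and decay cannot be told apart.

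Of the other 18 chemokine genes, at most 3 reached 5 CPM in a comparison. CXCL16, which is made as a membrane-bound chemokine, was at 14.1, 5.47, 7.33, 19.1 and 12.5 CPM, and CCL5 at 0.0439, 0.215, 5.34, 1.21 and 3.28 CPM. CXCL5 and CXCL9, named after their values were seen, had no UMI in any library, which allows up to 0.0922 CPM at 6h, the shallowest. The interferon-driven CXCL10, also named after its values were seen, was at 0.0877 CPM or less.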

How the data were processed

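Single-cell 3′ libraries of 5 samples were analyzed. The authors deposited raw UMI counts per gene and barcode, made with Cell Ranger 3 (matrix header 3.0.2) on GRCh38 per the labels. Gene positions come from GENCODE 44, on the same build, with all 10 identifiers matched. The 10 genes and the lists were chosen with earlier results of these data known. Counts were summed over kept cells and given as CPM. Named list genes are the 4 highest of each list, any past 2-fold with at least 50 CPM, and the 10 genes most correlated with the summed set. Correlations used counts scaled to 10000 per cell and log1p. Intervals are exact Poisson (levels, ratios conditional on the sum) or Clopper-Pearson (shares). A count of 0 allows 3 counts. Doublets were not called, and leaving out the 5% deepest cells stands in. The code for calls and co-expression was checked on simulated counts, where it recovered the changes put in. Python 3.11.15, numpy 2.4.6, scipy 1.17.1 and pandas 2.3.3 were used. The correlation without NFKBIA, the highest cells, ratios without them and the comparison of removed barcodes were chosen after seeing the data. With 1 library per timepoint no test between timepoints was run.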

Additional observations from a re-analysis of the deposited data

Results flagged for a closer look

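The barcodes removed because over 15% of their UMIs were mitochondrial, and used in no comparison, also held the secreted genes. In those with 200 to 8000 genes and at least 1000 UMIs, the 9 secreted genes summed to 5.45 CPM in the parental culture, 121 at 6h, 216 at 48h, 68.2 at 2mo and 169 at 4mo, against 3.43, 82.8, 124, 41.2 and 121 CPM in the kept cells. The parental value rests on 7 UMIs (interval 2.19 to 11.2) and overlaps that of the kept cells, while the 4 lung values lie above theirs. They were picked out because they lie above the limit that a count of 0 allows, between 0.306 and 2.34 CPM. Scaled to UMIs other than mitochondrial ones, the removed barcodes held 166 CPM at 6h and 364 at 48h, against 86.8 and 131 in the kept cells. CXCL2 at 4mo was at 14.6 CPM in removed and 5.65 in kept barcodes, LIF at 10.7 and 4.42, and IL1B at 0.204, from 2 UMIs, and 1.38.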

How the results depend on the processing

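The summed level of the 10 genes kept its order of libraries in each of 7 alternatives. In the parental culture it was 57.7 CPM in signature-positive cells only, and in 2mo 143 CPM. With each cell weighing the same it was 32.5 in the parental culture, 1444 at 48h, 134 at 2mo and 294 at 4mo. Scaled to UMIs outside mitochondrial and ribosomal protein genes it was 47.7, 684, 1831, 167 and 437 in time order, and with median-of-ratios size factors 28.9, 501.04, 1278, 103 and 343. Without the 5% of cells with the most UMIs it was 501.5 at 6h, 1416 at 48h, 118 at 2mo and 279.97 at 4mo. With at most 10% mitochondrial UMIs it was 1342 at 48h, 105 at 2mo and 283 at 4mo, and with no filter on cells 498 at 6h.

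With each cell weighing the same, 5 genes were higher at 6h than in the culture and 5 than in its signature-positive cells, instead of 3, and with no minimum CPM 5 against the latter and 1, CXCL1, at 2mo against 48h. With at least 20 CPM in either library, 1 gene was higher at 48h, 2 lower at 2mo, and 3 higher at 4mo against 2mo and 3 against the culture. In these comparisons only CXCL8, NFKBIA and, at 4mo, CXCL3 reached 20 CPM, so the smaller counts come with fewer genes tested. Shares of all genes are not given for these settings, so the counts carry no weight as results. No direction reversed.

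The share of cells with any of the 9 secreted genes was, with all UMIs, 6.26%, 30.05%, 59.2%, 29.6% and 49.1%; thinned to 3000 UMIs, 1.01%, 10.7%, 19.8%, 8.998% and 16.5%; and for at least 2 UMIs of 1 gene with all UMIs, 12.9% at 6h, 37.2% at 48h, 12.5% at 2mo and 25.9% at 4mo. With all UMIs, pairs above independence were 6 of 7 counted in culture, 11 of 12 at 6h and 18 of 19 at 48h. At 2mo all 18 counted pairs were above it, and at 4mo all 33. The lowest ratios were 0.847, 0.564 and 0.554 in culture, at 6h and at 48h. In signature-positive cells at 2mo, thinned to 3000 UMIs, 3 of 4 were above it, the lowest at 0.879. Thinned to 1000 UMIs, 4 pairs were above it at 48h, 1 at 2mo and 4 at 4mo. Fewer or more pairs reach 5 cells by independence in these settings. IL6 rests on 35 UMIs or fewer in any library. No paired analysis was possible because each timepoint is 1 library.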

Other observations

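A few inflammatory genes of the lists were higher in the late lung libraries than in the others. CX3CL1, a membrane-bound chemokine, stood at 0.0146 CPM in the parental culture, 0.0307 at 6h, 0.0641 at 48h, 13.7 at 2mo and 18.1 at 4mo. LCN2, an iron-binding protein of mucosal defense, was at 0.0683, 1.84, 0.0214, 29.1 and 105 CPM. TNFSF10, which encodes the death ligand TRAIL, was at 0.234, 0.3995, 0.684, 16.1 and 33.5 CPM, and CASP1, the protease that activates IL1B and IL18 precursors, was at 0.00976, 0.0307, 0.0641, 2.24 and 6.48 CPM. TNFSF10 and CASP1 were named after their values were seen.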
